A study of Mus musculus with 2 samples.

Results

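Aminoacyl-tRNA synthetases are the enzymes that join each amino acid to its transfer RNA, and without them no messenger RNA can be translated. Animal cells make one set for the cytosol and another for the mitochondria, both from nuclear genes. Several cytosolic enzymes sit together in the multisynthetase complex, and in mammals the transcription factor ATF4 raises several cytosolic synthetase genes when amino acids run short. The genes were chosen by symbol alone, as the protein-coding mouse RefSeq genes named with a capital letter and "ars" (with an optional 1, 2, a or b) or Eprs. This gave 37 of the 21887 protein-coding genes on the assembled chromosomes, 20 for cytosolic enzymes and 17 whose symbol ends in 2, for mitochondrial enzymes. Gars and Kars, counted here as cytosolic, are known to serve both compartments.

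The mark measured was trimethylation of lysine 4 of histone H3 (H3K4me3), which in mammals lies over the starts of active and poised genes. It was mapped by chromatin immunoprecipitation and sequencing in cultured neural progenitor cells of adult mice, kept with EGF and bFGF in N2 medium and given no treatment. The labels give no strain, sex or exact age, and the library's own marking "con" is not explained there, while the header of the peak file calls the same library by EGF. There was 1 H3K4me3 library of 18156769 filtered tags and 1 input library of 17831241, so the spread between cultures is unknown and no difference below was tested. The authors' list held 19265 peaks. The labelled identity was read at 4 genes of neural stem and progenitor cells, Sox2, Nes, Hes1 and Egfr, and 4 of 4 had a peak. None of 5 microglial genes and none of 5 non-neural genes had one at an end, and 1 of 5 endothelial genes (Kdr) and 3 of 5 neuronal genes (Tubb3, Snap25 and Syt1) did, with fold enrichments over the input of 13.26, 13.02, 16.63 and 22.57. Over all protein-coding genes the share with a peak at an end was 56.3%. Peaks inside the gene alone lay at the microglial Ptprc (17.36) and the endothelial Pecam1 (8.68) and Tek (5.75).

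H3K4me3 lay at the synthetase genes almost without exception. In 1 kb on either side of a gene end, a peak was present in 36 of 37 members (97.3%, exact 95% binomial interval over genes 85.8 to 99.9), where 56.3% of all protein-coding genes had such a peak. The 20 cytosolic genes were marked in 20 cases (interval 83.2 to 100%) and the 17 mitochondrial genes in 16 (94.1%, interval 71.3 to 99.9%). The exception was Aars2, the mitochondrial alanyl-tRNA synthetase gene. Its peak (chr17:45506456-45507793, 153 tags, fold enrichment 42.67) began 2941 bp inside the annotated gene, which RefSeq opens at position 45503515, and it covered the promoter that the RefSeq promoter table gives for the gene. When peaks inside the gene also counted, 37 of 37 members were marked, against 61.5% of coding genes. RefSeq promoter windows, from 250 bases before the start to 50 after it, were at hand for 27 members, and 27 of 27 lay under a peak, against 57% of the 17492 coding genes with a window.

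**Figure D1:**
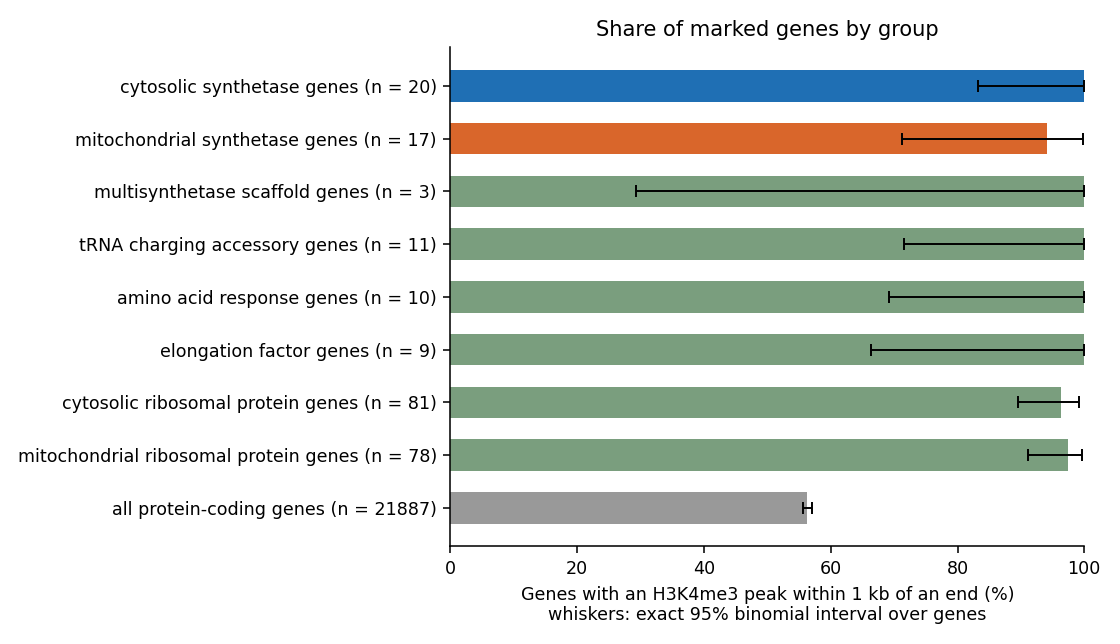
Percent of genes with an H3K4me3 peak within 1 kb of an end, by gene group, with exact 95% binomial intervals over genes as whiskers. The cytosolic (100%) and mitochondrial (94.1%) synthetase genes stand beside the related groups, all above the 56.3% of all protein-coding genes.

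Promoters of 5 cytosolic members held the letters TGATGNAA, the core of the composite C/EBP-ATF element through which ATF4 acts in the amino acid response. They are shown because these letters fell in 5 of the 13 cytosolic promoters at hand and in 0 of the 14 mitochondrial ones. Read on both strands, TGATGNAA was present in 3.69% of the 17492 coding promoters of the same length, and in 1.95% of the 9967 that lay under a peak. The sequences are those of RefSeq on GRCm38.p6, 5′ to 3′ in the direction of the gene, with the match in capitals; 5 of the 6 matches read on the opposite strand. The enzymes charge alanine (Aars, chr8:111033592-111033891, plus strand), glycine (Gars, chr6:55037751-55038050, plus strand), isoleucine (Iars, chr13:49681880-49682179, plus strand), threonine (Tars, chr15:11399609-11399908, minus strand) and tyrosine (Yars, chr4:129189653-129189952, plus strand).
Aars: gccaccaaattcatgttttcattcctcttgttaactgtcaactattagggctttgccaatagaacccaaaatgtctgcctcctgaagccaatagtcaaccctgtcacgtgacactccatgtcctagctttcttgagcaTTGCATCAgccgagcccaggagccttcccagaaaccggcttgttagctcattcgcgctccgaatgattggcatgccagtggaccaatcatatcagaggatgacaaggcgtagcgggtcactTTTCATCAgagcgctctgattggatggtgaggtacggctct
Gars: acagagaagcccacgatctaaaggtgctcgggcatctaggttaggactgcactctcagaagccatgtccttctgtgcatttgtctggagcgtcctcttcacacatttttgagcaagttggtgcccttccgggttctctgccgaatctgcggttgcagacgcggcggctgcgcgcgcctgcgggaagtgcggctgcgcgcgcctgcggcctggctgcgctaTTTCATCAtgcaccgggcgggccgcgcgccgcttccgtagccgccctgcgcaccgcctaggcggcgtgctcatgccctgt
Iars: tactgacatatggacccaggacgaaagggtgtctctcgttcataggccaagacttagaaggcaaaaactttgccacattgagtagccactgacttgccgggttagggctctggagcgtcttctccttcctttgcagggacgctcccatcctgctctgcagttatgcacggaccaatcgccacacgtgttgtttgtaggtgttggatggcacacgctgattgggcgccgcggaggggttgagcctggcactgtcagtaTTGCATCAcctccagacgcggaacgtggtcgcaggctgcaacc
Tars: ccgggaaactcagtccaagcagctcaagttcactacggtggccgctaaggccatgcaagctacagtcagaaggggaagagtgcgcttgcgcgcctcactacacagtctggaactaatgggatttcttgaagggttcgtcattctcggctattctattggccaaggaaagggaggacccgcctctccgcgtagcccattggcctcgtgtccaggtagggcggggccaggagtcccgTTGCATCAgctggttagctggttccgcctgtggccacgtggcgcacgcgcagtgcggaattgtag
Yars: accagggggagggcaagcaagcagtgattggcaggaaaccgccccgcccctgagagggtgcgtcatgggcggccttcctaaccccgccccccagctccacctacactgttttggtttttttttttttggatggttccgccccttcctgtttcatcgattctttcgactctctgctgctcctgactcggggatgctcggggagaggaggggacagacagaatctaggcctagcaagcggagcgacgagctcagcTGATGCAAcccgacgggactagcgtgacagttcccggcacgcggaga

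Counted from the start, with the first transcribed base as 1, the TGATGNAA matches began at -30 in Gars, -15 in Tars, 4 in Yars and 8 in Iars, and Aars held 2 matches, at -112 and at 10. The search covered the promoter window alone, and the start used for Aars (position 111033842) lies inside the gene as RefSeq annotates it, from 111027778. None overlapped a match of the other motifs searched. The promoter peak held 390 tags at Aars, 460 at Gars, 453 at Iars, 346 at Tars and 716 at Yars, with fold enrichments of 31.9, 36.55, 29.61, 43.67 and 26.77. The other 8 cytosolic promoters ranged from 250 to 599 tags and from 25.29 to 54.97 in fold enrichment, so both sets overlapped widely. The fold enrichment lay below the median of marked coding promoters, 39.71, at 4 of the 5 and above it at Tars. A match of letters is not a bound site, and no binding of ATF4 was measured here.

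Promoters of 4 other members show the range of the family. Eprs, whose product charges both glutamate and proline, had the highest fold enrichment of a promoter peak (chr1:185362794-185363093, plus strand). Wars2, the mitochondrial tryptophanyl-tRNA synthetase gene, had the lowest (chr3:99140840-99141139, plus strand). In both the GC box GGGCGG is in capitals, which reads CCGCCC on the opposite strand. Rars2 (chr4:34614707-34615006, plus strand) and Sars2 (chr7:28741718-28742017, plus strand), for mitochondrial arginyl- and seryl-tRNA synthetase, start head to head with a neighbour. There the capitals mark CCGGAAG, the core recognised by ETS factors, which reads CTTCCGG on the opposite strand.
Eprs: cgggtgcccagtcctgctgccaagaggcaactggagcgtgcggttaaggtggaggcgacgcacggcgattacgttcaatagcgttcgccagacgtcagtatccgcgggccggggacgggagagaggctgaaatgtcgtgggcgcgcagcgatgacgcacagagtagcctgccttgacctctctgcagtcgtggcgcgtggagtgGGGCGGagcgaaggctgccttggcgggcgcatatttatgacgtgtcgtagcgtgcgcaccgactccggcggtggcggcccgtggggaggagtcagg
Wars2: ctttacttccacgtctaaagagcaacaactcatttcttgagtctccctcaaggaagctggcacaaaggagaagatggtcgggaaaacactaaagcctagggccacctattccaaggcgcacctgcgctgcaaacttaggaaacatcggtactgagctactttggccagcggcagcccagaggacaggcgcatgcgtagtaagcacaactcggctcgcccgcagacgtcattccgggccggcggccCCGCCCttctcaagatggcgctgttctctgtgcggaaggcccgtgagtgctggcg
Rars2: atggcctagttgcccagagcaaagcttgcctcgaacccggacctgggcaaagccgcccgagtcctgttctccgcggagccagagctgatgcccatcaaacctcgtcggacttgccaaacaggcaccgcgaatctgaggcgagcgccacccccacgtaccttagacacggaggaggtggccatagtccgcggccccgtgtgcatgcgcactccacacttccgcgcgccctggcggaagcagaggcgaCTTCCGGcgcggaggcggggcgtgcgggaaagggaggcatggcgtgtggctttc
Sars2: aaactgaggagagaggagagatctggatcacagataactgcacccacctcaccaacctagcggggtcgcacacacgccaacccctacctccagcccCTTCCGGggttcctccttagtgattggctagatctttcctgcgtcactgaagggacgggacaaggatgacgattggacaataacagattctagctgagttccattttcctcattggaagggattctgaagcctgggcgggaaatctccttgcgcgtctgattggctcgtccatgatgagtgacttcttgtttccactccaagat

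The remaining motifs were set beside their frequency at other promoters under a peak. CCGGAAG was present in 9 of 27 members (33.3%), against 18.6% of marked and 11.9% of all coding promoters. The GC box GGGCGG was present in 19 of 27 (70.4%), close to the 68.6% of marked promoters. CCAAT was found in 13 of 27 (48.1%) and in 39.2% of marked promoters. The E-box CACGTG, which MYC and related factors recognise, was found in 5 of 27 (18.5%, in 10.4% of marked promoters), and 3 of these 5, Aars, Iars and Tars, also held TGATGNAA. TATAAA was present in 3 of 27, in Aars2, Farsa and Tars2, and the NRF1 motif was in none of the 27 windows (2.22% of marked promoters). CpG pairs were present at a median of 0.739 of the number that the C and G content would give, with a range of 0.40 (Tars2) to 1.24 (Mars1). The median was 0.788 over marked coding promoters and 0.199 over unmarked ones.

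The mark sat across the start and mostly downstream of it. The summit lay downstream of the RefSeq start in 23 of 27 members (85.2%), at a median of 185 bp, against 79.5% and 197 bp over marked coding promoters. From the start, peaks reached a median of 1314 bp into the gene and 820 bp upstream, against 1294 and 822 bp over marked coding promoters. In 4 members the summit lay upstream, at -680 bp at Fars2, -521 bp at Farsb, -495 bp at Ears2 and -200 bp at Qars. Fars2 and Ears2, for mitochondrial phenylalanyl- and glutamyl-tRNA synthetase, have a neighbour that starts in the opposite direction. Farsb, for the beta subunit of the cytosolic phenylalanine enzyme, and Qars, for the glutamine enzyme, have none within 1 kb in the promoter table.

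**Figure D2:**
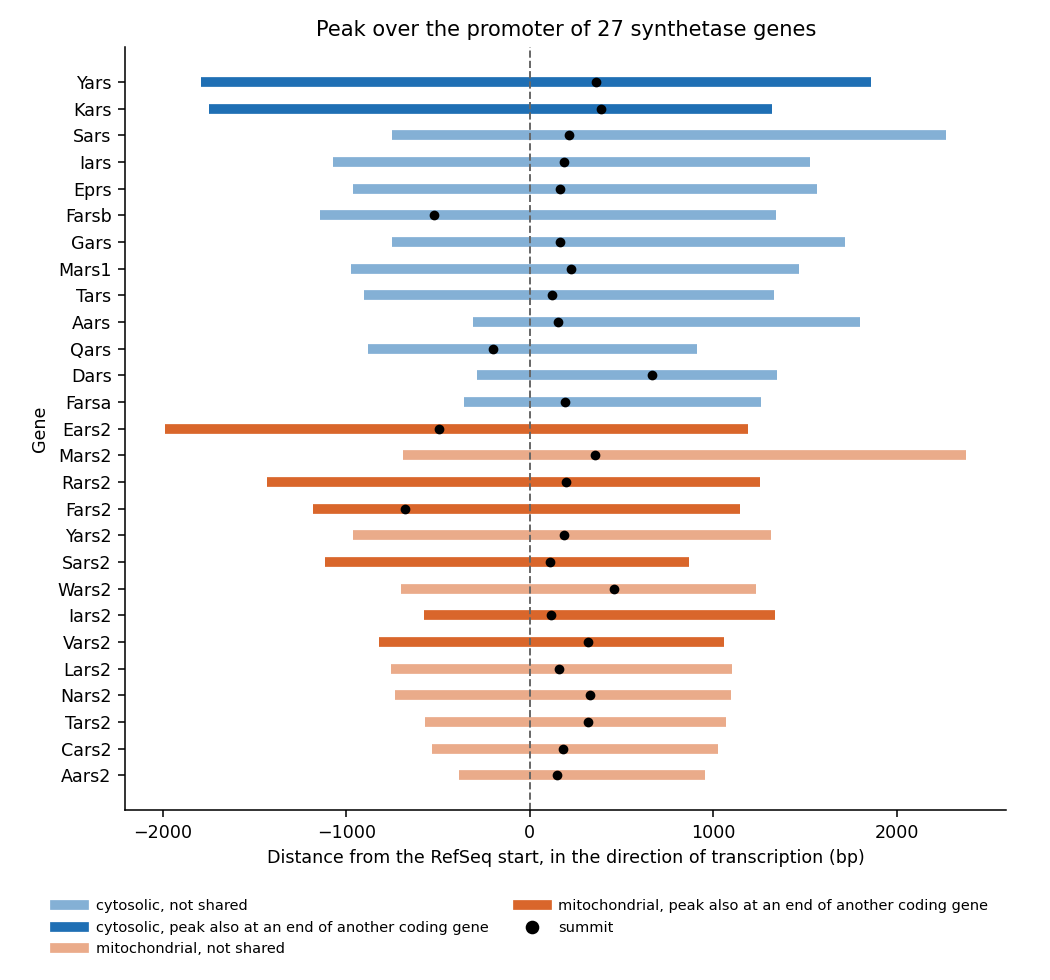
Extent of the peak over the promoter of 27 members, as bars in bp from the RefSeq start (dashed line), with upstream to the left and the summit as a black point. Dark bars are peaks that also lay at an end of another coding gene. The summit lies to the right of the start in 23 of 27.

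Members that start head to head with another coding gene had peaks that reached further upstream. A start of another coding gene on the opposite strand lay within 1 kb in 6 of 27 members (22.2%), against 9.15% of coding genes with a promoter window. All 27 members lay under a peak, and of the 9967 coding promoters under a peak 1532 were head to head, a share above 9.15%. The distance between the starts was 5 bp for Kars and Terf2ip, a telomere protein gene, and 15 bp for Rars2 and Orc3, a gene of the origin recognition complex. It was 112 bp for Ears2 and Ubfd1, 147 bp for Sars2 and the mitochondrial ribosomal protein gene Mrps12, 286 bp for Fars2 and Lyrm4, an iron-sulphur cluster assembly gene, and 324 bp for Yars and S100pbp. At these 6 members the peak reached 1117 to 1988 bp upstream (median 1592), and at the other 21 from 289 to 1144 bp (median 752). The ranges touch at Sars2 and Farsb. Over all marked coding promoters the medians were 1380 bp head to head and 757 bp otherwise.

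Mitochondrial members shared their peaks with neighbours more often than cytosolic ones, in counts too small to go beyond description. Each peak at the gene's ends also lay at an end of another coding gene in 8 of 16 marked mitochondrial members (among them Ears2, Fars2, Hars2, Iars2, Rars2, Sars2 and Vars2) and in 5 of 20 cytosolic ones (Hars, Kars, Vars, Wars and Yars). The share over all marked coding genes was 27.4%. Among marked ribosomal protein genes it was 48.7% for mitochondrial and 32.1% for cytosolic ones. With peaks at an end of 1 coding gene alone, 15 of 20 cytosolic and 8 of 17 mitochondrial members were marked, against 40.9% of coding genes. Which neighbour a shared peak belongs to cannot be told from these data. Hars and Hars2, the cytosolic and mitochondrial histidine enzyme genes, shared 1 peak with each other (chr18:36781964-36784236, 364 tags, fold enrichment 41.23). This peak lay over the point at which the annotated genes meet. Hars2 had a second peak at its other end, shared with Zmat2 (334 tags, fold enrichment 50.16).

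In 7 of the 36 marked members a peak lay within 1 kb of each end (19.4%, against 9.8% of marked coding genes). In 5 of these the strand is given, and at 4 of them, Aars, Kars, Qars and Tars2, a separate peak lay near the far end. Each of these far-end peaks lay wholly outside the annotated gene. At Qars the peak at the far end (chr9:108516207-108518904, 611 tags, fold enrichment 59.27) also lay at an end of Qrich1 and was stronger than the peak over the promoter (250 tags, 36.16). The far-end peak of Kars (225 tags, 46.29) was at an end of Adat1, a gene for a tRNA-modifying deaminase, and that of Aars (317 tags, 41.23) at ends of Exosc6, an RNA exosome gene, and Gm38523. At Tars2 the far-end peak was weak (29 tags, 5.31) and lay at an end of Ecm1. Mars2, a gene of 2882 bp, lay nearly whole under 1 peak of 3070 bp. Aars had a further peak of 252 tags across the first base of the annotated gene, well before the promoter peak, at no other coding gene. Inside Fars2 lay a weak peak of 49 tags with a fold enrichment of 9.83, 164790 bp from the annotated start of the gene.

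In fold enrichment, tags and width the family resembled other marked genes, while its tags per kb of peak were mostly higher. The strongest peak at an end had a median fold enrichment of 41.23 over the 36 marked members (range 22.99 to 59.27), against 39.15 over the 12328 marked coding genes, whose quartiles were 29.89 and 46.29. Above the upper of these quartiles lay 11 members and below the lower one 5. The median was 372 tags (range 165 to 716) against 336, and the widest joined region at an end had a median of 2363 bp (range 1557 to 4674) against 2242 bp. Tags per kb of peak were above the coding median of 152 in 30 of 36 members, with a median of 168. At Aars, Kars, Qars and Hars2 the strongest peak lay outside the annotated gene. Over the promoter peaks of 27 members the median fold enrichment was 36.55, against 39.71 over marked coding promoters. The largest false discovery rate that the authors give for a peak over a member was 0.2%.

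The highest fold enrichments were at Qars (59.27, the far-end peak), Cars (55.69, 390 tags), the cysteine enzyme gene, Eprs (54.97, 544 tags), Ears2 (51.35, 620 tags) and Rars2 (51.35, 503 tags). The lowest were at Wars2 (22.99, 214 tags), Farsb (25.29, 432 tags), Yars (26.77, 716 tags), Iars and Iars2 (29.61 in each, with 453 and 317 tags). Among these strongest peaks, that of Yars thus had the most tags and the third lowest fold enrichment. Across the 36 members fold enrichment and tags ranked with a Spearman rho of 0.15, whereas over marked coding genes rho was 0.70. These rho values cover unlike ranges. Members ran from 22.99 to 59.27 in fold enrichment and from 165 to 716 tags, and marked coding genes from 4.93 to 77.39 and from 15 to 3712 tags. Fold enrichment and tags come from the same peaks of 1 library, and members are not replicates. The subunits of the cytosolic phenylalanine enzyme differed as well, with 264 tags over 1623 bp and a fold enrichment of 49.18 at Farsa, and 432 tags over 2488 bp and 25.29 at Farsb.

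Wide joined regions lay at Vars (4674 bp), Yars (3651 bp), Ears2 (3175 bp) and Mars2 (3070 bp). Vars, the cytosolic valine enzyme gene, lay in the widest 5% of regions at coding gene ends, which began at 4541 bp. These held 2 of 36 marked members, or 5.56%, against 5.62% of marked coding genes. The region at Vars joined 3 peaks of 176, 429 and 19 tags, of which the first 2 also lay at an end of D17H6S56E-5.

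**Figure D3:**
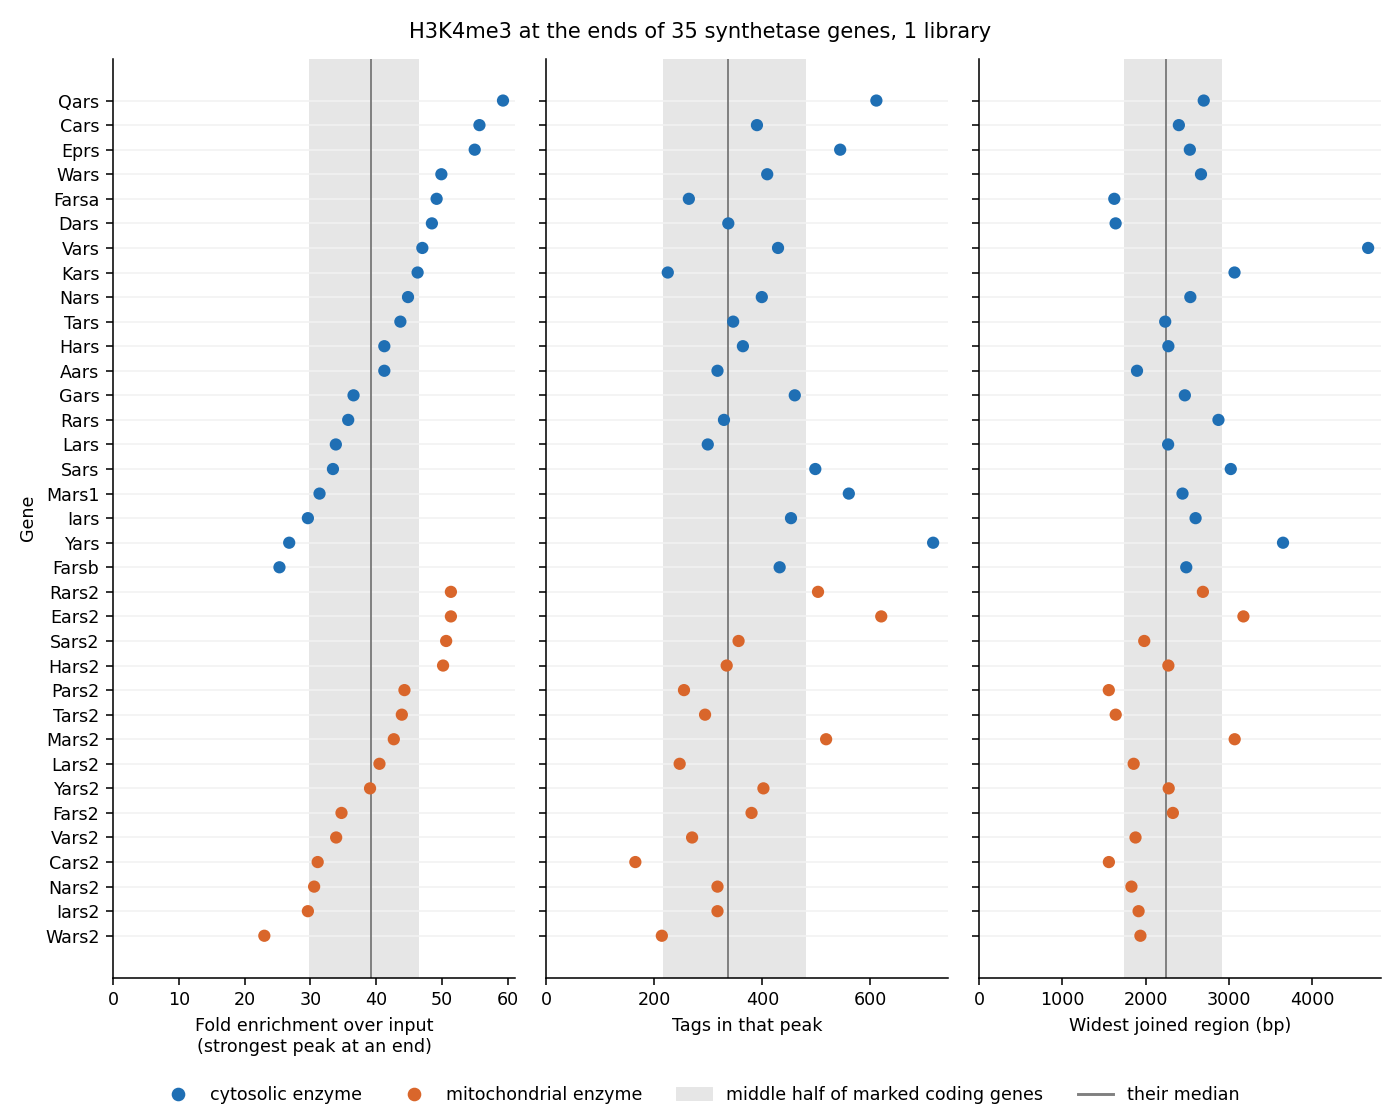
Fold enrichment and tags of the strongest peak at an end, and width of the widest joined region in bp, for 35 of the 36 marked members. Blue points are cytosolic and orange points mitochondrial enzymes, and the grey band and line give the quartiles and the median over marked coding genes. Most points fall in or near the band, with medians over the 36 of 41.23, 372 tags and 2363 bp.

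Median tags and widths were higher for cytosolic than for mitochondrial members, with intervals that overlap. The strongest peak held a median of 404 tags in the 20 cytosolic members (95% interval of the median over genes 337 to 460) and 325.5 tags in the 16 mitochondrial ones (255 to 503). Median region widths were 2510 bp (2273 to 2698) and 1960 bp (1829 to 2688), and median fold enrichments 42.45 (33.86 to 48.46) and 39.78 (31.1 to 50.16). These intervals cover the spread over genes, not between cultures. With the peak over the promoter in place of the strongest one, the median fold enrichment of 13 cytosolic members was 36.16 and that of 14 mitochondrial members 39.78, the opposite order. Tags kept their order there, with medians of 453 and 317.

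Genes for the same amino acid were paired by symbol, alike but for a final digit. This gave 14 cytosolic and mitochondrial pairs, of which the histidine pair shares a peak and was left out. The rule left unpaired Eprs (544 tags) with Ears2 (620) and Pars2 (255), and Farsa (264) and Farsb (432) with Fars2 (380). For each gene the promoter peak was used, or the strongest peak at an end where no promoter window was at hand. The cytosolic member had more tags in 11 of 13 pairs and the longer peak in 11 of 13, but the higher fold enrichment in 5, with 7 the other way and a tie for isoleucine. The highest ratios of cytosolic to mitochondrial tags were for alanine, with 390 tags at Aars and 153 at Aars2, and for cysteine, with 390 at Cars and 165 at Cars2. The methionine genes lay closest, with 560 tags at Mars1 and 518 at Mars2, and the cytosolic share of the pair's tags (51.9%, exact 95% binomial interval 48.9 to 54.97) did not exclude equal counts. The order was turned in 2 pairs, of which the arginine pair had 329 tags at Rars and 503 at Rars2. The mitochondrial peak is shared with a neighbour in both of these, and also in the isoleucine, serine and valine pairs, where the cytosolic gene had more tags. The cytosolic peak is shared with a neighbour in the valine, tryptophan and tyrosine pairs, and there too the cytosolic gene had more tags. In the 6 pairs with a promoter window for both genes, the cytosolic gene had more tags in 6 and the higher fold enrichment in 0. Binomial intervals cover counting error only, and amplified tags without molecular identifiers are not independent molecules.

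**Figure D4:**
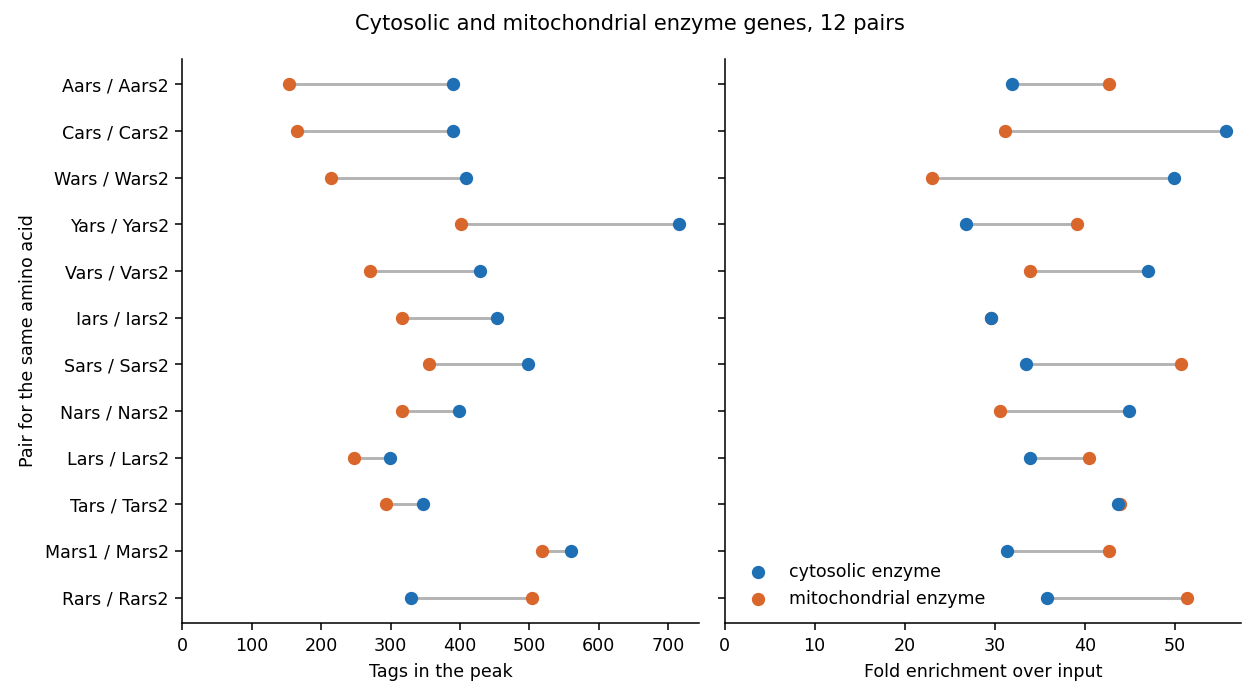
Tags in the peak (left) and fold enrichment over the input (right) for 12 of the 13 pairs made by symbol. Enzymes of a pair charge the same amino acid, and pairs are ordered by the ratio of tags. Blue points (cytosolic) lie to the right of orange points (mitochondrial) for tags in each of these pairs but that of arginine, and the isoleucine points coincide for fold enrichment.

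The members known to form the multisynthetase complex are Dars, Eprs, Iars, Kars, Lars, Mars1, Qars and Rars. In median fold enrichment and tags of the strongest peak they were close to the other cytosolic members. They had a median fold enrichment of 41.02 and 395 tags, against 42.45 and 404 tags in the remaining 12. Median tags per kb were higher, at 189.9 against 163.7. For Kars and Qars these values come from peaks outside the annotated genes. Over the promoter peaks at hand the complex members had a median of 498.5 tags (6 members) and the others 432 (7 members). Median fold enrichments there were 38.2 and 33.42, and median tags per kb 200.4 and 173.6. The genes of the complex's scaffold proteins, Aimp1, Aimp2 and Eef1e1, were marked in 3 of 3 (all protein-coding genes 56.3%), with fold enrichments of 53.52, 44.84 and 47.73. The peak at Aimp1 was shared with Tbck and that at Aimp2 with the mismatch repair gene Pms2.

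Genes that work beside the synthetases were likewise marked more often than the 56.3% of all protein-coding genes. The list of accessory genes of tRNA charging also holds Tarsl2 (308 tags), a synthetase-like gene outside the symbol rule. Of the genes in this list 11 of 11 had a peak at an end, though mostly a smaller one. Their medians were 215 tags and 1611 bp, against 336 tags and 2242 bp over marked coding genes. Below the lower coding quartile lay 6 of the 11 in tags and 8 in width. Gatb, Gatc and Qrsl1, which encode the mitochondrial amidotransferase that makes glutaminyl-tRNA, had fold enrichments of 39.22, 44.84 and 45.93. Mtfmt, which formylates the mitochondrial initiator tRNA, had 41.95, and Pstk and Sepsecs, which make selenocysteinyl-tRNA, had 31.71 and 37.61. The weakest was Prorsd1, with 19 tags and 7.23. The elongation factor genes were marked in 9 of 9, from 32.18 at Eef1d and Tsfm to 60.03 at Eef1g. Of the ribosomal protein genes 78 of 81 cytosolic and 76 of 78 mitochondrial ones had a peak at an end.

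Genes of the amino acid response were marked in 10 of 10, against 56.3% of all protein-coding genes. Eif2ak4, the kinase that senses uncharged tRNA, had a fold enrichment of 27.59, and Atf4 had 45.98 with 631 tags at a peak shared with Mief1. Ddit3, a target of ATF4, lay under 6395 bp with 1233 tags, at a peak shared with Mbd6. Asns, Trib3 and Chac1, which ATF4 is known to raise, had 24.93, 30.38 and 22.42, and their promoters held TGATGNAA, as 3 of the 10 in this group did. These 3 lay below the coding medians of 39.15 in fold enrichment and 336 in tags, with 204 to 246 tags. So did Eif2ak4 (278 tags) and Phgdh (33.99, 319 tags), whose promoters held no TGATGNAA. Of the others without it, Atf4, Ddit3, Sesn2 and Psat1 lay above both medians, and Shmt2 above that of tags alone. The promoter windows of scaffold, accessory and elongation factor genes at hand (3, 9 and 7) held no such match. Among the lists for other cell types, 1 of the 4 neuronal promoters at hand, that of Tubb3, held one.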

How the data were processed

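The data are 1 H3K4me3 library and 1 input library of mouse neural progenitor cells. Per the submitters' processing notes the build was mm10, and no aligner is named in the sources used here. The authors called peaks with MACS 1.4.2 against the input, per the file headers (p cutoff 1e-05, at most 1 tag per position), on a single library and not on pooled samples; the processing notes name MACS2 2.1.0 instead. Each peak in the deposited file has a position, a tag count that is not normalized, and a score, which is the -log10 p times 10. The deposited fold enrichment is a ratio to the input, and the deposited false discovery rate is in percent. These are the authors' values and were used to describe and rank peaks within the list. Keeping 1 tag per position limits the counts of strong peaks, and sites below the p cutoff are not listed.

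Peaks were joined to RefSeq genes and promoter windows of GRCm38.p6 (the same assembly as mm10) with Python 3.11.15 and pandas 2.3.3. A gene was called marked when 1 bp or more of a peak lay within 1 kb of either of its ends. Peaks 1 kb or less apart were joined for widths. Of 37 members 27 matched the promoter table. The join was tested on simulated data. Members and lists were chosen with earlier results of these data known. Values are given in full for members with the 5 widest regions, the 5 highest and 5 lowest fold enrichments, those with no peak at an end and those that share a peak with another member, and 1 member is counted but not reported here by name; the multisynthetase complex group, the split by TGATGNAA and the head-to-head groups were described after their values were seen. With 1 library no p-value was computed. Alternatives were windows of 500 and 2500 bp, the summit, a stricter score, the whole gene, promoter windows, unshared peaks, the peak with the most tags, and other gaps.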

Additional observations from a re-analysis of the deposited data

How the results depend on the processing

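The 7 summary values (the shares of all, cytosolic and mitochondrial members marked, and the medians of fold enrichment and width in each class) were recomputed under 37 alternatives in all, and 30 stayed within the 95% interval of the value reported. With a peak anywhere over the gene the share rose to 100% for all members and for mitochondrial ones, and over the RefSeq promoter window it was likewise 100% for both. With peaks at an end of 1 coding gene alone the shares fell to 62.2% for all, 75% for cytosolic and 47.1% for mitochondrial members, against 40.9% of coding genes. When the summit itself had to lie in the window, 33 of 37 members were marked, and with windows of 500 bp 35. The median fold enrichment of cytosolic members went from 42.45 to 36.16 over the promoter windows, an alternative chosen after seeing the data, and to 36.16 with unshared peaks, below the mitochondrial 39.78 in each case. No paired analysis was possible because there is 1 library of each kind and no test. Without replicates, no value can be set against the spread between cultures, and a weak peak below the caller's threshold at this depth would not be listed.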
